A study of Mus musculus with 12 samples.

Results

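Total RNA of bone marrow derived macrophages was compared after 45 min of lipopolysaccharide (LPS) with total RNA of unstimulated cells, on 4 of the 12 arrays of the study, 2 per group. The 4 arrays were chosen by their labels alone. The cells were grown from marrow of C3H/HeN mice with IL-3, IL-6 and stem cell factor, with conditioned medium of L cells as the source of M-CSF, and adherent cells were replated without that medium for the stimulation. The stimulated group received LPS of Escherichia coli at 100 ng/ml for 45 min and the control group received none. Every culture, the unstimulated one included, also received 200 µM 4-thiouridine (a uridine analogue that enters newly made RNA) for its last 35 min, so the control shares that exposure. Per the labels, 2 independent experiments were run, each with 1 unstimulated and 1 stimulated culture measured here, and the number of mice behind a culture is not given. Total RNA is all RNA extracted from the culture, and 200 ng of it entered each amplification. Nascent RNA, the thiouridine-labelled part purified from the same extracts, and total RNA at 270 min are used only for values set beside those of the 45 min comparison.

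LPS, a component of the outer membrane of Gram-negative bacteria, is bound by CD14 and by Toll-like receptor 4 with MD-2 on macrophages. The receptor signals through MyD88 and TRIF to the NF-kB and MAP kinase pathways and to interferon regulatory factors. NF-kB waits in the cytoplasm on IkB proteins and enters the nucleus when these are degraded, and the first genes to be transcribed need no new protein synthesis. They include cytokines and chemokines, immediate early transcription factors, and inhibitors that act back on the same pathways.

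Of 35557 probe sets on the array, 21789 carried 1 gene symbol, which gave 19938 genes, each read through its brightest probe set. Across these genes the log2 values of the 4 arrays were correlated at r = 0.9768 to 0.9877, a description over genes that share their arrays. The 2 arrays of an experiment were correlated at 0.9877 and 0.9874, and the 2 arrays of a group at 0.9836 and 0.9870. All 11 measured macrophage markers (among them Csf1r, Adgre1 and Cd68) lay above background on every array, with a mean log2 intensity of 11.66 to 11.83 per array. Background here is the 95th percentile of 1015 olfactory receptor genes on each array, 6.19 to 6.33 on the 4 arrays on the log2 scale. Under that level at both times lay 8 of 11 neutrophil markers, 7 of 10 T or NK cell markers, 5 of 7 B cell markers, 5 of 10 fibroblast markers, 4 of 7 erythroid markers, 4 of 10 dendritic cell markers and 3 of 11 mast cell markers. The mean of the mast cell markers was 5.85 and 6.71 in unstimulated cells of experiments 1 and 2 and 5.96 and 6.77 after LPS, so it differed between experiments and moved little with LPS. None of the markers of any of the 8 cell types was called changed, and the part of other cells in the results was not tested. In these bulk samples fewer cells of a type and less RNA per cell cannot be told apart.

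After 45 min of LPS, 132 of 19938 genes were higher in total RNA and 4 were lower at a Benjamini-Hochberg adjusted p below 0.05 by limma. These are 0.662% and 0.0201% of the genes tested. The fit did not pair the arrays by experiment, and the counts with the experiment as a block are given below. The genes that rose included those of cytokines and chemokines (Tnf, Cxcl2, Cxcl1, Il1b, Il1a, Ccl2, Cxcl10), early transcription factors (Egr1, Fos) and regulators of NF-kB and MAP kinases (Nfkbiz, Tnfaip3, Nfkbia, Dusp1). The measured rise was at least 2-fold in 128 of the 132 genes, at least 4-fold in 66 and at least 16-fold in 10. The median change was 2.00 on the log2 scale among the 132 genes and -0.01 among all genes. At an unadjusted p below 0.05, 380 genes were higher and 228 lower.

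In all 132 genes both stimulated arrays lay above both unstimulated arrays, as they did in 11.4% of all genes tested. The change was larger in experiment 2 for 97 of the 132 genes and larger in experiment 1 for 35, with a median absolute difference of 0.29 between the experiments. With the experiment as a block in the model, 181 genes were higher and 17 lower (0.908% and 0.0853% of the genes tested), and all 132 and all 4 genes called without the block were among them. Of the calls that the block added, 19 higher were of list members other than microRNA entries, and 3 lower were of members of any list. The microRNA entries called higher went from 5 to 6 with the block. The added calls named below were chosen after their values were seen. In 75 of the 132 genes the call held whichever of the 4 arrays was left out. The count of higher genes fell to 81 without the 45 min array of experiment 2 and the count of lower genes to 0 without the experiment 2 array at 0 min or the experiment 1 array at 45 min. With 2 arrays in each group, the number of arrays limits the precision of every value.

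**Figure D1:**
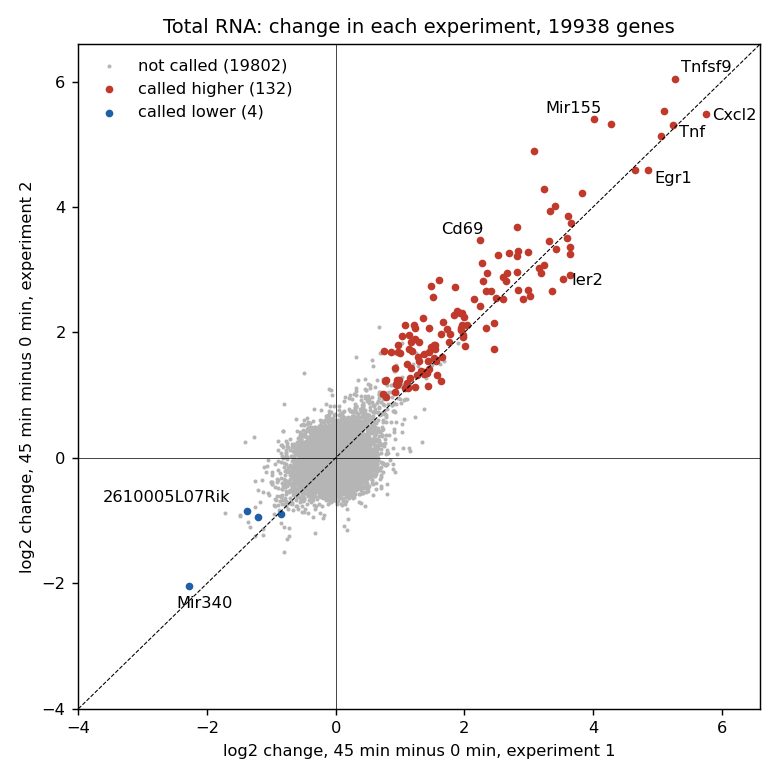
Log2 change in total RNA from 0 to 45 min of LPS in experiment 1 (x axis) and experiment 2 (y axis), 1 point per gene, with the 132 genes called higher in red, the 4 called lower in blue and the dashed line marking equal changes. Red points lie in the upper right corner, 97 of them above the line, and the 4 blue points in the lower left.

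The values below are log2 intensities of experiments 1 and 2, in that order. A change is the mean of the 45 min arrays minus the mean of the unstimulated arrays, with its standard error (SE) from limma and n = 2 arrays per group. Where both unstimulated arrays of a gene lay under the background level, which held for 23 of the 132 genes, the fold is a lower bound against that level. It could be given for 21 of them, since Il6 and Lrrc63 stayed under the level at both times.

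The largest rises belonged to cytokines, chemokines and the enzyme of prostaglandin synthesis. Tnfsf9, which encodes the ligand for 4-1BB on T cells, measured 5.59 and 5.39 in unstimulated cells and 10.87 and 11.42 after LPS, at least 29.1-fold higher (adjusted p = 8.01e-09). Tnf, the cytokine tumour necrosis factor, measured 8.0 and 7.78 before and 13.24 and 13.09 after, a change of 5.27 ± 0.20 or 38.7-fold. Ptgs2, which encodes the inducible cyclooxygenase of prostaglandin synthesis, went from 5.72 and 5.67 to 10.82 and 11.20, at least 26.4-fold. In each of these 3 genes the arrays of a group lay close together and the groups were far apart. Against the 99th percentile of the olfactory receptor genes in place of the 95th, every bound on a rise falls by 1.58-fold, to 18.4-fold for Tnfsf9, 16.7 for Ptgs2, 10.5 for Mir155, 7.37 for Ccl2 and 6.25 for Il1a, and none is left for Olr1 or 9130230L23Rik. Cxcl1, Il1b, Egr1, Gem and Cxcl10, whose folds are given here as measured, would then have bounds too (at least 21.8, 18.5, 19.0, 11.8 and 9.38-fold). Of the 15 measured ligands of the TNF superfamily, Tnfsf9 and Tnf rose and 13 were not called, 7 of them under background at both times. The median change of the TNF ligands was -0.01, as for all genes.

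The neutrophil-attracting chemokines Cxcl2 and Cxcl1 both rose. Cxcl2 measured 6.76 and 7.48 in unstimulated cells and 12.52 and 12.96 after LPS, a change of 5.62 ± 0.24 or 49.2-fold. Cxcl1 measured 6.35 and 6.26 before and 11.40 and 11.38 after, a change of 5.09 ± 0.21 or 34.1-fold. Cxcl10, an attractant of T cells that is also induced by interferon, measured 6.39 and 6.50 before and 10.00 and 10.36 after, a change of 3.73 ± 0.21 or 13.3-fold. The groups did not overlap in any of the 3 genes. They were the only called members among 14 measured CXC chemokines, whose median change was 0.20. Another 7 members lay under background at both times. Cxcl3 passed only with the experiment as a block (change 0.99 ± 0.22, adjusted p = 0.0791 without and 0.0251 with the block).

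The first bases upstream of these chemokine genes and of Tnfaip3, described below, hold the letters of a kB site, the element that NF-kB binds: GGG, any 2 bases, TT, any base, CC. The windows are shown because the 4 genes were among the 16 largest rises and held the motif, next to Ptgs2 and Tnf, which were also among those 16 and did not hold it. Il1b, Il1a, Acod1 and Dusp1, also of those 16, had a window without the motif as well. The rest of the 16 had no window in the search. Each line gives the 250 bases before the gene's start, 5′ to 3′ on the gene's strand, from RefSeq promoter windows on GRCm38.p6, with a kB match on either strand in capitals.
Cxcl2, chr5:90903649-90903898, + strand: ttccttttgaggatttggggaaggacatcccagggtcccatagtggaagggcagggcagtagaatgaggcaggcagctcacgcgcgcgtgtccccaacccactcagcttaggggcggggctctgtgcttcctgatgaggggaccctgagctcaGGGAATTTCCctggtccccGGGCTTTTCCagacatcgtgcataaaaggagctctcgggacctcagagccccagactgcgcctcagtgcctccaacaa
Cxcl1, chr5:90890995-90891244, + strand: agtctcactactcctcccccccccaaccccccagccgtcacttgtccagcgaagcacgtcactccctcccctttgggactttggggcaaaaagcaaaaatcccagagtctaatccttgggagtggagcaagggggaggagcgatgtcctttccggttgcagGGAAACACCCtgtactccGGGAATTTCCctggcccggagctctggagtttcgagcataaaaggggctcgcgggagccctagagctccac
Cxcl10, chr5:92348890-92349139, - strand: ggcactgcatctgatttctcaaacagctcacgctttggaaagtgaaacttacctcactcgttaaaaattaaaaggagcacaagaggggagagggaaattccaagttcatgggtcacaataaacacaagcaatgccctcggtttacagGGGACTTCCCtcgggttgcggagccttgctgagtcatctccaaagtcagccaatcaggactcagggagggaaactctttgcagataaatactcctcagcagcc
Tnfaip3, chr10:19015411-19015660, - strand: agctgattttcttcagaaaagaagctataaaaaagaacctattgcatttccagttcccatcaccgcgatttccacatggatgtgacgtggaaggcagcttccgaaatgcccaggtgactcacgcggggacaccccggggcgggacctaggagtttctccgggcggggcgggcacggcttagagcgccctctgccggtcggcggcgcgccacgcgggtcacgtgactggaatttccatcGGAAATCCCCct
Ptgs2, chr1:150099781-150100030, + strand: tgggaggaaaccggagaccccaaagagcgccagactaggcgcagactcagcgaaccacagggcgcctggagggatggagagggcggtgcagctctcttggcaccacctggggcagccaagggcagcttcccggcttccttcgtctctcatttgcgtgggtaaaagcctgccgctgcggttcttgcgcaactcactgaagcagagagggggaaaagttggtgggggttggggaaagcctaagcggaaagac
Tnf, chr17:35202008-35202257, - strand: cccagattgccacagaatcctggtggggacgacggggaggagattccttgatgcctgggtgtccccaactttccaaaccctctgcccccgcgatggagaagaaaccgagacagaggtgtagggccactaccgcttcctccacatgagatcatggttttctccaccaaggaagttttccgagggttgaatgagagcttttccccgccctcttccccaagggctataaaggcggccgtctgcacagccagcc
Cxcl2 holds 2 matches, starting 97 and 78 bases before the start, and Cxcl1 holds 2, starting 89 bases (on the other strand) and 71 bases before it. The match GGGAATTTCC stands in both Cxcl2 and Cxcl1. Cxcl10 holds 1 match, 103 bases before the start, and Tnfaip3 holds 1 on the other strand, 12 bases before it.

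Among the genes called higher, 93 of 132 had a RefSeq window in the search (250 bases before to 50 after the start), as did 15562 of the genes tested. Windows on a single chromosome were left out before the search, so genes there count as without a window. Where a gene had several starts, as 24 of the 93 did, the first listed was used. The kB letters as above, searched on both strands, stood in 15 of the 93 windows (16.1%) and in 4.86% of all windows. Besides the 4 shown, these were Gbp5, Nfkbia, Ccrl2, Rasgef1b, Tnip3, Il6, Hilpda, Tlr2, Tfec, Rel and Bcl2l11. The AP-1 letters TGANTCA stood in 11 (11.8%, against 6.97% of all), among them Il1a, Cxcl10, Tnfaip3 and Il6. The cyclic AMP response element TGACGTCA stood in 6 (6.45%, against 2.50%): Dusp1, Btg2, Ppp1r15a, Plk2, Ccnl1 and Wsb1. The CArG box, which serum response factor binds, stood in 2 (2.15%, against 1.43%). The letters TATAAA stood in 22 (23.7%, against 12.1%) and the GC box GGGCGG in 54 (58.1%, against 49.9%). A CArG box can contain TATAAA, and no other motif contains another. These matches describe letters in a window, and no binding was measured.

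Interleukin-1 genes and their antagonist rose together. Il1b measured 6.62 and 6.10 in unstimulated cells and 10.89 and 11.43 after LPS, a change of 4.80 ± 0.23 or 27.9-fold. Il1a measured 5.99 and 5.21 before and 9.08 and 10.10 after, at least 9.91-fold. Il1rn, the receptor antagonist that blocks both, measured 6.93 and 7.25 before and 8.91 and 9.49 after, a change of 2.11 ± 0.24. Both stimulated arrays lay above both unstimulated arrays in each, and the change in Il1a was larger in experiment 2. These 3 were called among 13 measured members of the family and its receptors, with a median change of 0.13 and 7 members under background at both times.

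Among other cytokines, 4 of 24 measured members rose, with a median change of 0.08 and 11 members under background at both times. Il10, an anti-inflammatory cytokine, measured 4.62 and 4.94 before and 6.88 and 8.04 after LPS, at least 2.27-fold higher. Csf2, which encodes the growth factor GM-CSF, measured 4.84 and 4.71 before and 7.19 and 7.65 after, at least 2.20-fold. Il6 measured 3.87 and 4.07 before and 5.39 and 5.87 after, and since all 4 values lay under background no fold is given. Il10 and Csf2 thus crossed the background level, while the Il6 arrays separated beneath it. Clcf1, a ligand of the CNTF receptor, changed by 1.38 ± 0.22. The Clcf1 call was lost without either array of experiment 2 (adjusted p = 0.1025 without the unstimulated one) and the Il6 call without either unstimulated array or the 45 min array of experiment 2 (largest adjusted p = 0.193).

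The CC chemokines that attract monocytes and other leukocytes rose in 4 of 19 measured members, with a median change of 0.12 and 7 members under background at both times. Ccl2 measured 6.11 and 6.12 before and 9.52 and 10.14 after LPS, at least 11.7-fold higher. Ccl4 measured 7.06 and 7.21 before and 9.88 and 10.90 after, a change of 3.25 ± 0.31 or 9.52-fold. Ccl3 measured 11.50 and 9.84 before and 13.11 and 12.68 after, a change of 2.22 ± 0.38 or 4.67-fold. The unstimulated Ccl3 values stood 1.66 apart, the largest such gap of the 3 genes, and the Ccl3 call was lost without either 45 min array (adjusted p = 0.1549 without that of experiment 1). Ccl12 rose at least 1.79-fold, from 5.17 and 4.87 to 6.65 and 7.60.

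**Figure D2:**
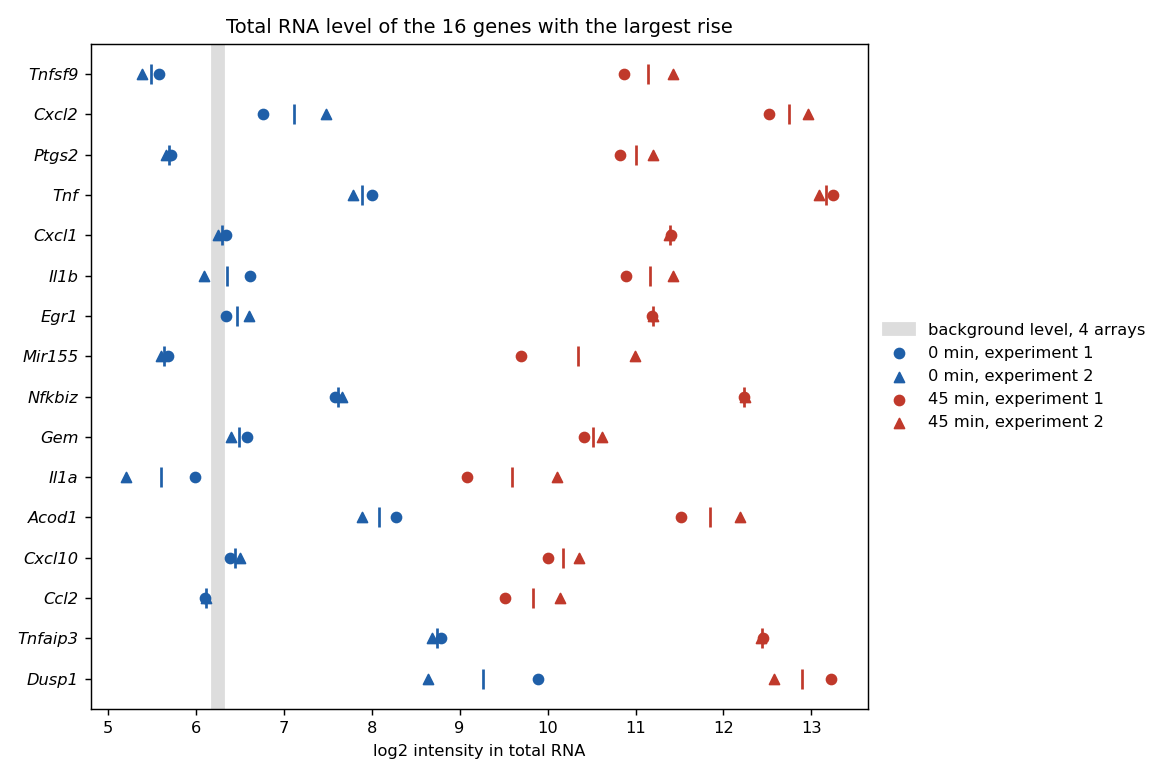
Log2 intensity in total RNA (x axis) of the 16 genes with the largest rise (y axis), 1 point per array, blue for 0 min and red for 45 min, circles for experiment 1 and triangles for experiment 2, with a vertical tick at each group mean and a grey band over the background levels of the 4 arrays. No gene's red points overlap its blue points, and the unstimulated points of Tnfsf9, Ptgs2, Mir155, Il1a and Ccl2 lie left of the band.

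The IkB proteins and subunits of NF-kB were the list in which the largest share of members rose, 6 of 10, with a median change of 1.40. Nfkbiz, an inducible nuclear IkB protein that is needed for part of the secondary response genes, measured 7.59 and 7.66 before and 12.23 and 12.24 after LPS, a change of 4.62 ± 0.19 or 24.5-fold. Nfkbia, which encodes IkBα, the inhibitor that holds NF-kB in the cytoplasm, measured 9.40 and 8.95 before and 12.71 and 12.41 after, a change of 3.39 ± 0.30 or 10.5-fold. Nfkbid measured 7.49 and 7.22 before and 10.48 and 9.90 after, a change of 2.84 ± 0.33. The 2 Nfkbiz arrays of each time were nearly equal, while the Nfkbid arrays at 45 min stood 0.58 apart. Nfkbie rose by 2.50 ± 0.29, Nfkbib by 1.45 ± 0.29 and Rel, a DNA-binding subunit, by 1.36 ± 0.22. In all 10 members both stimulated arrays lay above both unstimulated arrays, as they did in 11.4% of all genes tested. The Nfkbib call was lost whichever array was left out (largest adjusted p = 0.3863, without the 45 min array of experiment 1). Rel lost its call without the experiment 1 array at 0 min or the experiment 2 array at 45 min (adjusted p = 0.1095 without the latter). Relb (change 1.07 ± 0.32) had an adjusted p of 0.426, or 0.0171 with the experiment as a block.

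Proteins that turn the pathway off rose in 2 of 13 measured NF-kB brakes, with a median change of 0.21. Tnfaip3, which encodes the ubiquitin-editing enzyme A20, measured 8.79 and 8.69 before and 12.45 and 12.42 after LPS, a change of 3.70 ± 0.19 or 13.0-fold. Tnip3, an A20-binding protein, measured 9.26 and 8.43 before and 11.11 and 11.16 after, a change of 2.29 ± 0.25 or 4.89-fold. In both genes the stimulated arrays stood close together, and the unstimulated Tnip3 arrays differed by 0.83. None of the 24 measured members of the TLR4 complex and its signalling proteins was called, with a median change of 0.05. The largest change among them was that of Cd14, the LPS co-receptor, with 10.43 and 9.67 before and 11.74 and 11.31 after (change 1.47 ± 0.36, adjusted p = 0.147, or 0.0115 with the experiment as a block). Tab2, which links TRAF6 to the kinase TAK1, had one of the highest levels in the list and measured 10.82 and 11.01 before and 10.63 and 10.90 after.

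Immediate early genes of the Egr, Nr4a, Ier and Klf families rose in 9 of 29 measured members, with a median change of 0.83. Egr1, a zinc finger transcription factor induced by ERK signalling, measured 6.34 and 6.61 before and 11.19 and 11.20 after LPS, a change of 4.72 ± 0.24 or 26.4-fold. Ier2 measured 7.16 and 6.53 before and 10.70 and 9.39 after, a change of 3.20 ± 0.52 or 9.18-fold. Csrnp1 measured 7.11 and 6.65 before and 10.11 and 9.93 after, a change of 3.14 ± 0.30 or 8.80-fold. The Egr1 arrays at 45 min were nearly equal, whereas those of Ier2 stood 1.31 apart. Ier3 rose by 2.74 ± 0.24, Egr2 by 2.73 ± 0.26 and the kinase gene Plk2 by 1.52 ± 0.19. Nr4a1, which encodes an orphan nuclear receptor, was at least 3.51-fold higher, and Id3, an inhibitor of basic helix-loop-helix factors, at least 2.93-fold. Klf10 changed by 1.29 ± 0.26. The calls of Ier2 and Id3 were lost without the experiment 2 array at 0 min or the experiment 1 array at 45 min (adjusted p = 0.1257 and 0.2182 without the latter), and that of Klf10 whichever array was left out (up to 0.3602). Myc, Klf6, Sgk1 and Id2 passed only with the block, with changes of 1.03 ± 0.31, 1.03 ± 0.30, 0.91 ± 0.20 and 0.81 ± 0.19 and blocked adjusted p of 0.0284, 0.0172, 0.0132 and 0.0111.

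The AP-1 list, of factors that pair through leucine zippers, had 4 called members of 17, with a median change of 0.37. Fos measured 6.53 and 6.77 before and 10.18 and 9.68 after LPS, a change of 3.28 ± 0.28 or 9.69-fold. Maff, a small Maf protein, measured 6.23 and 5.98 before and 8.83 and 8.51 after, at least 5.23-fold higher. Junb measured 7.55 and 7.69 before and 10.01 and 9.84 after, a change of 2.31 ± 0.36 or 4.95-fold. For Fos, Maff and Junb the stimulated value of experiment 1 was the higher one. Atf3, a repressor of inflammatory genes, started at 11.63 and 11.60 and reached 12.55 and 12.65, a change of 0.98 ± 0.14. Junb lost its call without the 45 min array of experiment 1 (adjusted p = 0.05531) and Atf3 without that of experiment 2 (adjusted p = 0.05036).

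Inhibitors of MAP kinase signalling, most of them phosphatases, rose in 4 of 18 measured members, with a median change of 0.34. Dusp1, which acts on p38 and JNK, measured 9.89 and 8.64 before and 13.22 and 12.57 after LPS, a change of 3.63 ± 0.34 or 12.4-fold. Dusp2 measured 7.24 and 7.13 before and 10.89 and 10.50 after, a change of 3.51 ± 0.32 or 11.4-fold. Dusp4 measured 7.83 and 7.51 before and 9.79 and 9.62 after, a change of 2.04 ± 0.33. Experiment 1 had the higher value in each group for all 3 phosphatases. Errfi1, an inhibitor of the EGF receptor, rose by 1.76 ± 0.19. Dusp4 lost its call without the experiment 2 array at 0 min or without either 45 min array (largest adjusted p = 0.07267). Dusp5 (change 0.95 ± 0.20) had an adjusted p of 0.052, or 0.026 with the block.

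Regulators of mRNA decay rose in 3 of 21 measured members, with a median change of 0.08. Btg2, a cofactor of deadenylation, measured 8.20 and 8.01 before and 11.39 and 10.96 after LPS, a change of 3.07 ± 0.31 or 8.39-fold. Zfp36, which encodes tristetraprolin, a protein that binds AU-rich elements, measured 8.47 and 9.10 before and 11.48 and 11.68 after, a change of 2.80 ± 0.28 or 6.95-fold. Zc3h12c measured 8.29 and 8.17 before and 10.18 and 10.51 after, a change of 2.11 ± 0.22. Its relative Zc3h12a, which encodes the RNase Regnase-1, had a change of 1.29 ± 0.35 with an adjusted p of 0.247, or 0.0135 with the block.

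Of 14 measured IRF factors, interferons and receptors, Irf1 was the single called member, with 9.65 and 8.82 before and 12.46 and 12.05 after LPS, a change of 3.02 ± 0.31 or 8.12-fold. The median change of the list was 0.14. Of 28 measured interferon-stimulated genes, 2 guanylate binding proteins were called and the median change was 0.13. Gbp5 measured 5.58 and 6.01 before and 9.17 and 9.52 after, at least 8.33-fold higher. Gbp3 measured 7.0 and 7.14 before and 8.18 and 8.84 after, a change of 1.44 ± 0.24. Gbp3 lost its call without the experiment 1 array at 0 min or the experiment 2 array at 45 min (adjusted p = 0.141 without the latter), which leaves 1 called member. Guanylate binding proteins are close relatives and their probe sets may share signal. Among 20 measured JAK, STAT and SOCS genes, Socs3, a feedback inhibitor of IL-6 receptor signalling, rose from 7.40 and 7.06 to 11.03 and 10.31, a change of 3.44 ± 0.28 or 10.9-fold. The median of this list was 0.06. The kinase gene Pim1 (change 1.49 ± 0.33) had an adjusted p of 0.0667, or 0.006 with the block.

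Co-stimulatory and activation surface molecules rose in 8 of 27 measured members, with a median change of 0.40. Clec4e, which encodes the lectin receptor Mincle, measured 9.39 and 9.08 before and 12.09 and 12.34 after LPS, a change of 2.98 ± 0.17 or 7.89-fold. Cd69, an early activation antigen, measured 5.29 and 5.37 before and 7.53 and 8.84 after, at least 3.74-fold higher. Cd83 measured 8.05 and 8.15 before and 10.88 and 10.83 after, a change of 2.75 ± 0.29 or 6.73-fold. Cd69 was 1.31 higher in experiment 2 than in experiment 1 at 45 min, and the groups overlapped in none of the 3 genes. The adhesion molecule gene Icam1 rose by 2.52 ± 0.26, the co-stimulatory receptor gene Cd40 by 2.33 ± 0.22, the proteoglycan gene Sdc4 by 1.89 ± 0.31 and the ICOS ligand gene Icosl by 1.66 ± 0.25. Olr1, a receptor for oxidised LDL, was at least 1.32-fold higher. Sdc4, Icosl and Olr1 lost their calls in 2 or 3 of the 4 fits without 1 array, with a largest adjusted p of 0.1237 (without the 45 min array of experiment 1), 0.07695 and 0.4122 (both without that of experiment 2). Without the unstimulated array of experiment 2, 5 members were called.

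Of 34 measured G protein-coupled receptors of macrophages, the chemerin-binding receptor gene Ccrl2 rose, from 9.95 and 9.80 to 12.35 and 12.46, a change of 2.53 ± 0.21 or 5.79-fold. The list's median change was 0.00. Gpr84 (change 1.44 ± 0.41) had an adjusted p of 0.331, or 0.0103 with the block. Regulators of small GTPases and G protein signalling were called in 4 of 26 members, with a median change of 0.14. Gem, a small GTPase that inhibits calcium channels, measured 6.59 and 6.40 before and 10.41 and 10.62 after LPS, a change of 4.02 ± 0.22 or 16.3-fold. Rgs1 measured 8.38 and 8.57 before and 11.04 and 11.51 after, a change of 2.80 ± 0.22 or 6.98-fold. Rasgef1b, an exchange factor for Ras-type GTPases, measured 10.10 and 9.84 before and 12.25 and 12.37 after, a change of 2.34 ± 0.21 or 5.06-fold. None of the 3 genes had overlapping groups. Rnd3 changed by 1.65 ± 0.29, and its call was lost without the unstimulated array of experiment 2 (adjusted p = 0.1834) or without either 45 min array.

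Among 27 measured inflammatory enzymes and acute phase genes, Acod1 and Arg2 rose beside Ptgs2, and the median change was 0.16. Acod1, whose enzyme makes itaconate from a citric acid cycle intermediate, measured 8.28 and 7.89 before and 11.52 and 12.18 after LPS, a change of 3.77 ± 0.25 or 13.6-fold. Arg2, the mitochondrial arginase, measured 7.0 and 6.53 before and 8.29 and 8.38 after, a change of 1.57 ± 0.26. Its call was lost without the unstimulated array of experiment 2 (adjusted p = 0.1495) or either 45 min array. Among 22 Toll-like receptors and inflammasome genes, 2 rose, with a median of 0.11. Nlrp3, the sensor of the best-known inflammasome, measured 7.86 and 7.65 before and 10.69 and 10.61 after, a change of 2.89 ± 0.23 or 7.43-fold. Tlr2, a receptor for bacterial lipoproteins, measured 9.48 and 9.13 before and 10.93 and 10.81 after, a change of 1.57 ± 0.21. Casp4, the mouse caspase that senses cytosolic LPS, had a change of 1.01 ± 0.22 and an adjusted p of 0.0628, or 0.0173 with the block.

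Regulators of apoptosis and survival were called higher in 5 of 28 measured members, with a median change of 0.08. Phlda1 was at least 7.0-fold higher, from 6.19 and 6.24 to 8.71 and 9.47. Cflar, which encodes the caspase-8 inhibitor c-FLIP, measured 9.31 and 8.81 before and 11.15 and 11.09 after LPS, a change of 2.06 ± 0.25. Traf1, a signalling adaptor of TNF receptors, measured 7.02 and 6.17 before and 8.53 and 8.73 after, a change of 2.03 ± 0.27. The members also included Birc3, an inhibitor of apoptosis (1.09 ± 0.22), and Bcl2l11, which encodes the death-promoting protein Bim (1.11 ± 0.21). Thus the called members act in both directions on cell death. Birc3 and Bcl2l11 lost their calls whichever array was left out (largest adjusted p = 0.4745 and 0.2949, both without the unstimulated array of experiment 2), which leaves 3 members. Gadd45b had a change of 1.74 ± 0.57 with an adjusted p of 0.613, or 0.0291 with the block, and its unstimulated values of 11.07 and 9.39 stood 1.68 apart.

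In lists of other cell functions few or no members were called, beside 0.662% called higher among all genes tested. The shares called higher were 6.25% of growth factor, coagulation and fibrinolysis genes and 7.41% of Nrf2, antioxidant and metal genes. They were 4% of unfolded protein and integrated stress response genes and 6.25% of heat shock genes, each share resting on 1 or 2 members. Of 32 growth factor, coagulation and fibrinolysis genes, Plau, the urokinase, changed by 2.12 ± 0.39 and Serpinb2, an inhibitor of urokinase, was at least 1.68-fold higher, with a list median of 0.15. Neither was called without the experiment 1 array at 0 min or without the experiment 2 array at 45 min (adjusted p = 0.319 for Plau and 0.1003 for Serpinb2 without the latter). Of 27 Nrf2, antioxidant and metal genes, Sod2, the mitochondrial superoxide dismutase, rose by 1.62 ± 0.17 and Slc7a11, a subunit of the cystine importer, by 1.12 ± 0.20, with a median of 0.10. Slc7a11 lost its call without the unstimulated array of experiment 1 (adjusted p = 0.2341) or the 45 min array of experiment 2. Of 25 unfolded protein and integrated stress response genes, Ppp1r15a, which encodes the phosphatase subunit GADD34, rose from 8.06 and 7.67 to 10.71 and 10.48, a change of 2.73 ± 0.28 or 6.64-fold, with a median of -0.00 for the list. Of 16 heat shock genes, Dnajb4 changed by 1.56 ± 0.32, with a median of 0.07. Its call was lost without the experiment 1 array at 0 min or the experiment 2 array at 45 min (adjusted p = 0.5798 without the latter).

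**Figure D3:**
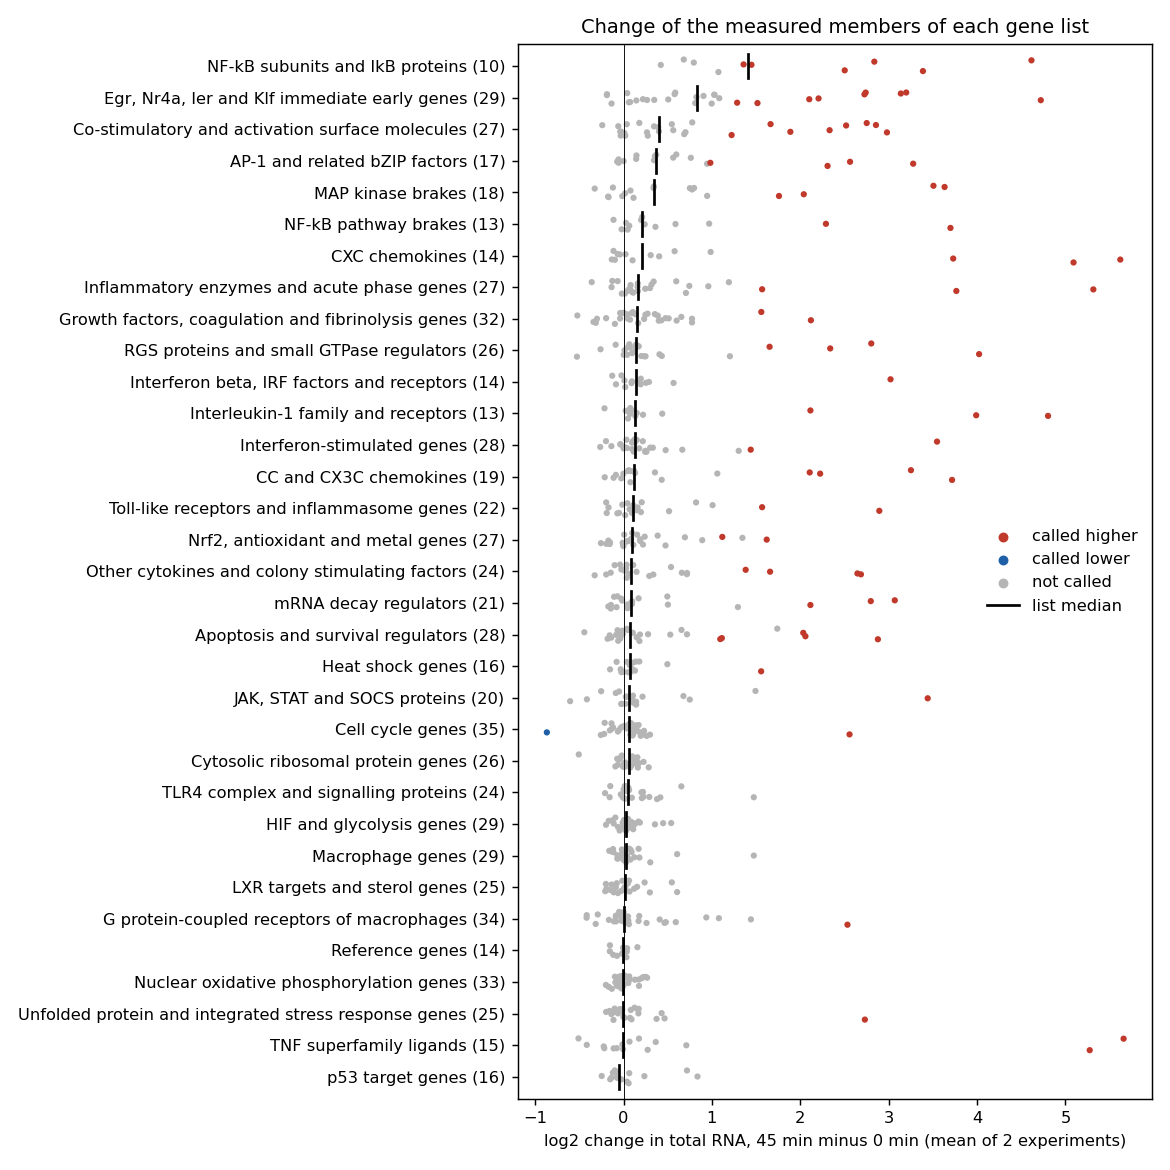
Log2 change in total RNA from 0 to 45 min of LPS (x axis, mean of 2 experiments) of each measured member of 33 gene lists (y axis, number of measured members in parentheses), red where called higher, blue where called lower and grey where not called, with a black bar at the list's median. The medians run from 1.40 for NF-kB subunits and IkB proteins to -0.05 for p53 target genes, and most lists centre near 0 with a few red points to the right.

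No member was called, in either direction, among 29 macrophage genes, 25 LXR targets and sterol genes, 29 HIF and glycolysis genes, 16 p53 target genes, 33 nuclear oxidative phosphorylation genes, 26 cytosolic ribosomal protein genes and 14 reference genes. Their median changes were 0.03, 0.02, 0.03, -0.05, -0.00, 0.06 and -0.00. Since only 0.662% of all genes tested were called higher and 0.0201% lower, 0 called among so few genes does not set a list apart. Lyz2, the lysozyme of macrophages, measured 13.75 and 13.50 before and 13.78 and 13.66 after LPS, and the lysosomal protease gene Ctsd 13.82 and 13.63 before and 13.79 and 13.71 after. Pltp and Npc2, which move lipids, changed by -0.06 ± 0.32 and 0.06 ± 0.25, and the glycolytic enzyme genes Hk1 and Aldoa by -0.02 ± 0.18 and -0.06 ± 0.37. Actb and Eef1a1 changed by -0.00 ± 0.15 each. Mdm2, the ubiquitin ligase that degrades p53, had a change of 0.84 ± 0.19 with an adjusted p of 0.101, or 0.0151 with the block. Cd14, also a member of the macrophage list, likewise passed only with the block, with the values given above. The ribosomal protein genes Rplp1 and Rpl28 changed by 0.17 ± 0.31 and 0.08 ± 0.18, and the ATP synthase genes Atp5a1 and Atp5c1 by 0.05 ± 0.22 and -0.00 ± 0.17. The values after ± are standard errors and not intervals, and changes larger than the SE remain possible. An adjusted p above the threshold does not show that a level was equal.

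Of 35 cell cycle genes, Mki67 rose and Haspin fell, with a median change of 0.06. Mki67, which encodes the proliferation antigen Ki-67, measured 6.57 and 6.66 before and 8.86 and 9.48 after LPS, a change of 2.56 ± 0.24 or 5.88-fold. The other 33 members were not called. Of 347 genes named Zfp, 3 were called higher (0.865%, against 0.662% of all genes tested): Zfp36, Zfp719 and Zfp558. Zfp719 rose from 7.39 and 7.52 to 9.37 and 9.47, a change of 1.97 ± 0.20, and Zfp558 was at least 1.97-fold higher. Zfp558 lost its call without the 45 min array of experiment 2 (adjusted p = 0.06979). The median change of the Zfp genes was -0.17, and in 130 of the 347 both stimulated arrays lay below both unstimulated arrays, against 14.4% of all genes tested. None of them was called lower without the block, and 83 lay under background at both times. With the block, 2 Zfp genes were called lower, Zfp157 (change -0.94 ± 0.23, blocked adjusted p = 0.0103) and Zfp39 (-0.85 ± 0.21, 0.0441).

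Of 300 microRNA gene entries on the array, 5 were higher and 2 lower after LPS (1.67% and 0.667%, against 0.662% and 0.0201% of all genes tested). The median change of the entries was -0.06, and 182 of them lay under background at both times. The amplification and array measure RNA from the gene's locus, such as the primary transcript, and the amount of mature microRNA was not measured. The mature sequences of the 7 entries are given from RefSeq (GRCm38.p6), 5′ to 3′, since the seed decides which mRNAs a microRNA pairs with. Capitals mark the seed, bases 2 to 8.
miR-155-5p: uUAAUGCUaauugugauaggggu
miR-155-3p: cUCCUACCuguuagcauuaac
miR-221-3p: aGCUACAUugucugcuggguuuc
miR-222-3p: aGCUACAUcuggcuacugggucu
miR-221-5p: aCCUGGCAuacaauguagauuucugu
miR-146a-5p: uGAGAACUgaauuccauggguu
miR-146a-3p: cCUGUGAAauucaguucuucag
miR-191-5p: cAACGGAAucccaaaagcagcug
miR-191-3p: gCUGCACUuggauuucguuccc
miR-103-3p: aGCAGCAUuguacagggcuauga
miR-103-2-5p: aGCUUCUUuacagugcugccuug
miR-340-5p: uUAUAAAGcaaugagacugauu
miR-340-3p: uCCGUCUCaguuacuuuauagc
Of these 13 mature sequences, miR-221-3p and miR-222-3p share the seed GCUACAU, and no other pair shares one.

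Mir155, whose mature form is known for its part in macrophage activation, measured 5.68 and 5.60 before and 9.69 and 11.00 after LPS, at least 16.7-fold higher. Mir221 measured 8.0 and 8.64 before and 11.16 and 11.67 after, a change of 3.09 ± 0.29 or 8.54-fold. Mir222 measured 7.37 and 7.38 before and 10.20 and 10.68 after, a change of 3.06 ± 0.26 or 8.36-fold. Mir221 and Mir222 lie beside each other on the X chromosome, as does the non-coding gene Gm14636, which measured 7.18 and 7.59 before and 10.60 and 10.92 after (3.38 ± 0.32). The 3 neighbours rose by about the same amount, and in none of them did the groups overlap. Mir146, the entry of miR-146a, a microRNA that targets signalling proteins of the Toll-like receptors, measured 6.39 and 5.99 before and 7.75 and 8.22 after, a change of 1.79 ± 0.25. Mir191 measured 7.02 and 6.99 before and 8.44 and 8.35 after, a change of 1.39 ± 0.22, and its call was lost whichever array was left out (largest adjusted p = 0.0635, without the unstimulated array of experiment 2).

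The genes called lower were Mir340, Mir103-2, 2610005L07Rik and Haspin. Mir340 measured 5.66 and 6.10 before and 3.38 and 4.05 after LPS, all under background, so no fold is given (adjusted p = 0.0076). Mir103-2 measured 6.47 and 6.40 before and 5.26 and 5.46 after, and was at least 1.19-fold lower against the background level. Haspin, which encodes a mitotic histone H3 kinase, measured 5.83 and 5.90 before and 4.99 and 5.01 after, under background on every array. Only 2610005L07Rik lay well above background, with 10.28 and 10.27 before and 8.91 and 9.42 after, a change of -1.11 ± 0.21. In all 4 both 45 min arrays lay below both unstimulated arrays, as they did in 14.4% of all genes tested. Calls of Mir103-2 and Haspin were lost whichever array was left out, with a largest adjusted p of 0.4032 (without the 45 min array of experiment 1) and 0.4193 (without the unstimulated array of experiment 2). The calls of 2610005L07Rik and Mir340 were lost without the experiment 2 array at 0 min or the experiment 1 array at 45 min (adjusted p = 0.2999 and 0.1503 without the latter), and that of 2610005L07Rik also without the unstimulated array of experiment 1.

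Of the 13 genes called lower only with the experiment as a block, the following were chosen after their values were seen. Txnip, an inhibitor of thioredoxin and glucose uptake, measured 11.76 and 11.87 before and 11.07 and 11.18 after LPS, a change of -0.69 ± 0.18 (adjusted p = 0.209, or 0.0378 with the block). Fbxo5, which encodes the inhibitor Emi1 of the anaphase-promoting complex, had a change of -0.98 ± 0.34 (adjusted p = 0.833, or 0.0132 with the block). Zbtb26, a zinc finger gene, measured 7.52 and 8.07 before and 6.39 and 6.93 after, a change of -1.14 ± 0.25 (0.0726, or 0.0028 with the block). The fall in Txnip was about equal in both experiments.

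**Figure D4:**
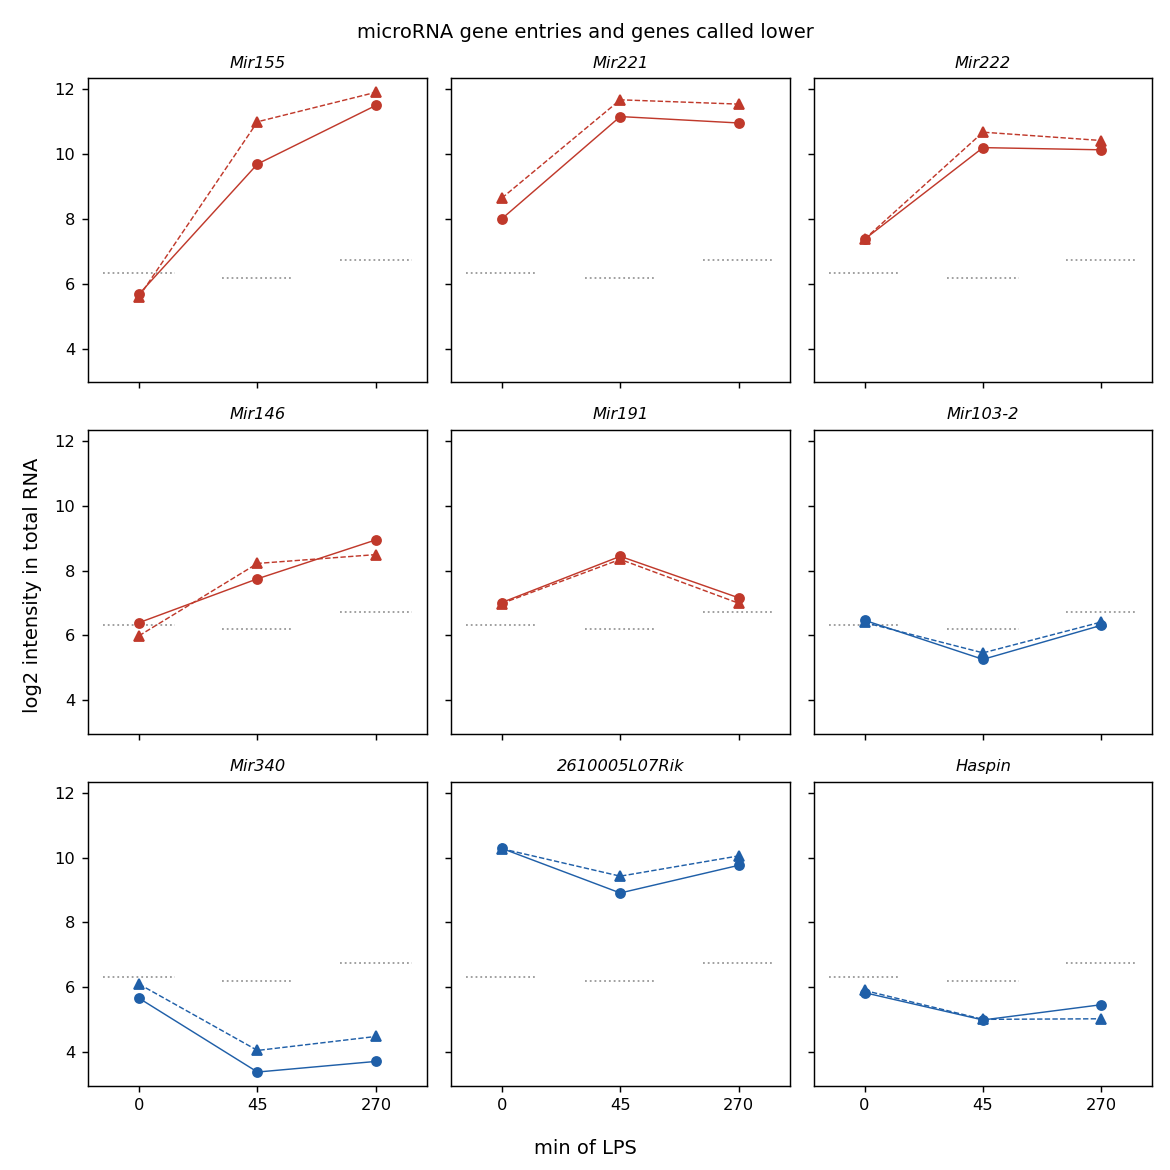
Log2 intensity in total RNA (y axis) at 0, 45 and 270 min of LPS (x axis) of the 7 called microRNA entries and the other 2 genes called lower, circles and solid lines for experiment 1, triangles and dashed lines for experiment 2, red for genes called higher at 45 min and blue for lower, with a dotted mark at the higher background level of each time. Mir155 climbs from under the mark to 11.00 at 45 min in experiment 2, and Mir340 and Haspin stay under the mark.

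Of the 132 genes that rose, 47 belonged to none of the gene lists, and the 20 with the largest rise are named here. Gm6377 rose by 3.16 ± 0.26, from 6.97 and 7.73 to 10.21 and 10.82. Marcksl1, an actin-regulating protein gene, measured 8.39 and 9.68 before and 11.75 and 12.34 after LPS, a change of 3.01 ± 0.35. Kdm6b, which encodes the histone H3 lysine 27 demethylase JMJD3, measured 8.49 and 8.32 before and 10.46 and 10.64 after, a change of 2.14 ± 0.25. These were, after Gm14636, the next in size, and their groups did not overlap. The endocytic recycling gene Ehd1 changed by 2.08 ± 0.26, the transcription factor gene Ets2 by 2.01 ± 0.27, Flrt3 by 1.99 ± 0.25, Ifrd1 by 1.95 ± 0.19, Noct by 1.90 ± 0.26, the nectin-like receptor gene Pvr by 1.88 ± 0.25, the cyclic AMP phosphodiesterase gene Pde4b by 1.80 ± 0.19, Eid3 by 1.80 ± 0.26 and the SMAD corepressor gene Skil by 1.67 ± 0.20. The guanylate binding protein gene Gbp2b changed by 1.64 ± 0.19, Hilpda, of lipid droplets, by 1.64 ± 0.27, Gm614 by 1.60 ± 0.25, the non-classical MHC class I gene H2-M2 by 1.55 ± 0.26 and Tfec by 1.49 ± 0.24. Gpr85 was at least 3.28-fold and 1700064E03Rik at least 2.29-fold higher.

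Some of these calls rested on single arrays. Without the 45 min array of experiment 2 the adjusted p was 0.05889 for Eid3, 0.1031 for Hilpda, 0.08264 for Gm614, 0.09897 for Tfec and 0.1559 for 1700064E03Rik, and without the unstimulated array of experiment 2 it was 0.1853 for H2-M2. The other named genes of this group, Ehd1, Ets2, Flrt3, Ifrd1, Noct, Pvr, Pde4b, Skil, Gbp2b, Kdm6b, Marcksl1, Gm6377, Gm14636 and Gpr85, kept an adjusted p below 0.05 in all 4 fits without 1 array.

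Nascent RNA of the same cultures showed whether the same genes were higher in newly made RNA. In nascent RNA 609 genes were higher at 45 min and 1172 lower (3.05% and 5.88% of the genes tested). Of the 132 genes higher in total RNA, 131 were also called higher in nascent RNA (99.2%), and they made up 21.5% of the 609. The exception, chosen after its values were seen, was Wsb1, a subunit of a ubiquitin ligase, with a change of 0.88 ± 0.18 in total RNA and 0.34 ± 0.18 in nascent RNA. All 4 genes lower in total RNA were also lower in nascent RNA. The nascent RNA was purified from the same extracts, so the 2 measurements share their cultures. The median change of the 132 genes was 2.63 in nascent RNA, beside 2.00 in total RNA.

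The nascent change was larger than the total change in 105 of the 132 genes and smaller in 27. In a test on each culture's nascent value minus its total value, 29 of the 132 genes had a larger response in nascent RNA and 2 a smaller one, while over all genes 95 were larger and 113 smaller (0.476% and 0.567%). The differences named are those of Gbp2b (2.50 ± 0.27, adjusted p = 8.31e-05), Ccl2 (2.30 ± 0.30, adjusted p = 0.000947), H2-M2 (2.06 ± 0.30), Gbp3 (1.99 ± 0.29), Phlda1 (1.99 ± 0.36) and Mki67 (1.93 ± 0.32). Ccl2 and Phlda1 lay under background in unstimulated cells in both kinds of RNA, and Mki67 in nascent RNA, so their differences rest on starting values not above background and are no exact sizes. Gbp2b, H2-M2 and Gbp3 started near background in nascent RNA, where the level was 6.42 and 6.20 in experiments 1 and 2. Gbp2b measured 6.52 and 6.69 there, H2-M2 6.21 and 6.23 and Gbp3 6.50 and 6.74. The sizes of their differences are therefore uncertain too. A start under background in at least 1 kind of RNA held for 13 of the 29 genes. Gbp2b changed by 1.64 in total RNA and by 4.14 in nascent RNA. A smaller response in nascent RNA was called for Tnfaip3 (-1.27 ± 0.22, adjusted p = 0.0093) and Rasgef1b (-1.13 ± 0.25, adjusted p = 0.0339), whose nascent changes were 2.43 and 1.20 beside 3.70 and 2.34 in total RNA. Both started high in nascent RNA. Tnfaip3 went from 10.86 and 11.26 to 13.56 and 13.40 there, and Rasgef1b from 11.66 and 12.21 to 13.28 and 13.00. Whether signals that high are compressed was not tested. All calls of a response difference rested on few cultures. Without the 45 min culture of experiment 1, 0 genes were called larger and 0 smaller by limma (1567 and 1138 at an unadjusted p below 0.05), and without that of experiment 2, 6 and 0 were (516 and 832 unadjusted). Without the unstimulated culture of experiment 1, 371 were called larger and 1351 smaller, and without that of experiment 2, 194 and 125. With the experiment as a block the counts were 289 and 816.

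**Figure D5:**
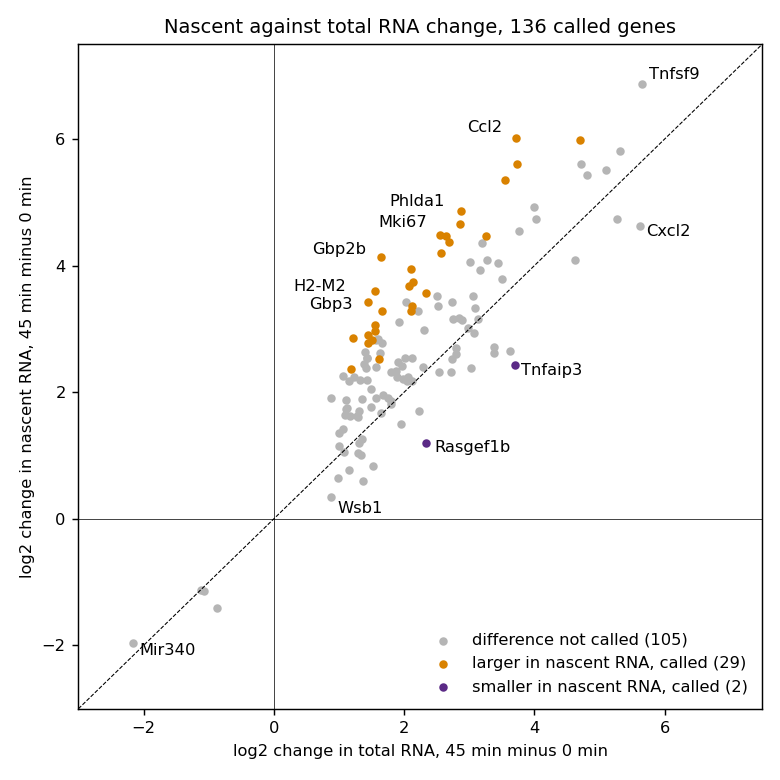
Log2 change from 0 to 45 min of LPS in nascent RNA (y axis) against that in total RNA (x axis) for the 136 genes called in total RNA, orange where the response was called larger in nascent RNA, purple where called smaller and grey where the difference was not called, with a dashed line of equal change. The 29 orange points lie above the line, Gbp2b and Ccl2 among them, and the purple points Tnfaip3 and Rasgef1b lie below it.

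List counts in nascent RNA are set here beside those in total RNA. Over all genes tested, 5.88% were called lower and 3.05% higher in nascent RNA, with a median change of 0.11. Of 33 oxidative phosphorylation genes, 11 were called lower in nascent RNA with a median change of -0.74, beside 0 called and a median of -0.00 in total RNA. Of 26 ribosomal protein genes, 4 were lower in nascent RNA, with a median of -0.38. Of 347 Zfp genes, 93 were lower and 10 higher in nascent RNA, with a median of -0.38 beside -0.17 in total RNA. All 10 members of the NF-kB and IkB list were called higher in nascent RNA, beside 6 in total RNA. The differences between the 2 kinds of RNA were not tested for these lists.

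Changes from 45 to 270 min rest on the same 45 min arrays as the rise and are set beside it only as values. Their SE equals that of the gene's rise, since every group had 2 arrays in 1 fit. Some early genes were lower again. From 45 to 270 min Egr1 changed by -4.84, Fos by -3.36, Egr2 by -3.34, Dusp1 by -3.20 and Btg2 by -2.34, with adjusted p of 2.15e-08, 2.14e-06, 1.34e-06, 1.77e-05 and 0.00013. At 270 min Egr1 and Fos lay under background in experiment 2. Other genes were higher still at 270 min. Il6, under background at 45 min, was at least 90.7-fold higher at 270 min (adjusted p = 4.19e-09). Cd69 changed by 3.86, Il1a by 3.52, Cd40 by 3.50, Cxcl10 by 3.22 and Gbp5 by 2.97. Others stayed near their 45 min level, with changes of 0.10 for Tnf (adjusted p = 0.779), 0.15 for Cxcl2, 0.32 for Cxcl1, 0.00 for Nlrp3 and -0.43 for Nfkbiz. Tnfsf9 changed by -1.45, and Il10 was under background again.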

How the data were processed

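Total RNA arrays (Affymetrix Mouse Gene ST 1.0) at 0 and 45 min were compared, grouped by their titles. The deposited tables hold linear intensities per probe set that the authors computed by RMA in the Expression Console software, per the submitters' processing notes. Neither versions nor the build were given in the sources used here. The planned design assumed log2 values, so log2 was taken first. RMA scales arrays to each other, so changes are relative to the other genes, and it compresses dim genes.

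Platform annotation gave 1621 of 35557 probe sets several symbols and 12147 none. Of the identifiers with 1 symbol, 21698 were found in RefSeq, which changed 0 symbols. For 999 symbols with several probe sets the brightest over 12 arrays was used. Dim genes were kept. The background level, from 1015 olfactory receptor genes, was picked with the values in view. For a lower bound of a fold, each dim array counted at its own value or at its background level, whichever was higher.

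Group means were fitted over the 12 arrays with limma 3.58.1 in R 4.3.3 (eBayes with an intensity trend, residual degrees of freedom 6, prior 7.38), with Benjamini-Hochberg adjustment over 19938 genes. This fit counted the 12 arrays as independent, although nascent and total RNA came from the same cultures. How far that moves the SE was not tested. Nascent minus total responses were fitted on 6 culture differences (3 and 16.5). Tables and figures used Python 3.11.15, numpy 2.4.6, pandas 2.3.3 and matplotlib 3.10.9, and the scripts were tested on simulated data. The labels' numbers mark independent experiments and so pair the samples: deviations of same-numbered arrays at 0 and 45 min were correlated across genes at 0.645, and those of total RNA at 0 min with total RNA at 270 min at 0.472, nascent RNA at 45 min at 0.329 and nascent RNA at 0 min at -0.0549. The experiment as a block is an alternative, beside other sets of arrays, quantile scaling, median centring, offsets of 16 and 64, dim genes left out, no trend, array weights, the mean of all probe sets and each array left out.

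Genes named are the 16 largest rises with a 45 min mean of at least 6.64 (the median of all genes' means), every fall, called members of 35 gene lists (the 2 brightest where none was called), the 20 largest rises outside the lists and up to 6 differences between responses in each direction. Members, lists, markers and motifs were chosen with earlier results of these data known. Probe sets of similar genes, such as Zfp genes, may share signal.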

Additional observations from a re-analysis of the deposited data

Results flagged for a closer look

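The nascent and total RNA responses to 45 min of LPS were compared by a test of the difference itself. Of the 132 genes higher in total RNA, 29 had a larger response in nascent RNA and 2 a smaller one. The 8 given here are the 6 largest of the former and both of the latter. The difference, nascent minus total on the log2 scale, was 2.50 for Gbp2b, 2.30 for Ccl2, 2.06 for H2-M2, 1.99 for Gbp3, 1.99 for Phlda1 and 1.93 for Mki67, all larger in nascent RNA. It was -1.27 for Tnfaip3 and -1.13 for Rasgef1b, both smaller in nascent RNA and both from a high start there. Ccl2 and Phlda1 started under background in both kinds of RNA and Mki67 in nascent RNA, so their differences are no exact sizes. Gbp2b, H2-M2 and Gbp3 started near background in nascent RNA, so the sizes of their differences are uncertain too. Of the 14 alternatives run for each gene, the call was lost in 1 for Gbp2b (without the 45 min culture of experiment 1), in 2 for Ccl2, H2-M2, Gbp3, Mki67 and Tnfaip3 (without either 45 min culture), in 4 for Phlda1 and in 8 for Rasgef1b, and the sign was kept in all. The values of a group of 2 arrays were not searched for outlying arrays.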

How the results depend on the processing

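Genes called higher numbered 132. Among the 16 alternatives the count was 87 with only the 4 compared arrays, 81 to 118 without 1 array, and within 1.5 times of 132 in the others, 102 with the 6 total RNA arrays to 181 with the experiment as a replicate block. The 4 genes called lower became 17 with the block, 2 with quantile scaling over 12 arrays, with an offset of 16 or without the intensity trend, 1 with an offset of 64, and 0 to 3 without 1 array (156 and 191 at an unadjusted p below 0.05 in the limma fits that called 0). For the nascent minus total response, the 95 larger and 113 smaller calls became 289 and 816 with the block, 56 and 18 with quantile scaling over 12 arrays, 42 and 15 with it within each kind of RNA, and 59 and 48 with array weights. Median centring gave 44 larger, and offsets of 16 and 64 gave 73 and 35 smaller. Without 1 culture the counts ran from 0 to 371 larger and from 0 to 1351 smaller. The cause of these shifts was not tested. No called gene changed sign in any of the 16 alternatives, 75 of the 132 were called in all of them, and none of the 4 lower genes was. The block ended none of the 132 and 4 calls, and part of the calls it added are named in the report. With the 90th or 99th percentile as background level, 12 or 36 of the rises started under it, beside 23. The 2 arrays per group limit the precision, and dim genes, with signals near background, have compressed changes.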
